A study of Mus musculus with 18 samples.

Results

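The astrocyte fraction of the brains of *Atxn2*-CAG100-KIN mice was compared with that of wild-type (WT) mice. It comprised 6 of the 18 libraries of the series, 3 from KIN and 3 from WT animals, and all genes with at least 5 reads in at least 2 of these 6 libraries were examined, which were 11751 of the 35960 entries of the deposited table. The KIN mice were homozygous for a CAG repeat expansion knocked into the endogenous mouse *Atxn2* gene on a C57BL/6 background, and each was matched with a littermate of its own sex that carried the unexpanded gene, all at the age of 10 months. By the study's methods the pairs were of both sexes, so that each group mixes males and females. No transgene or Cre was involved, and the repeat is present in every cell of the animal, so that these libraries do not separate changes that began in astrocytes from those passed on by other cells. Each fraction was prepared with magnetic beads from the dissociated whole brain, where CD11b-positive microglia were taken out first, and the cells bound by the astrocyte antibody ACSA-2 were collected from the remainder. Reads of the 3′-directed panRNA sequencing carried unique molecular identifiers. The deposited values are whole-number counts per transcript, which were summed per gene symbol. Levels are given as CPM, the counts scaled to the library size after normalization with the TMM factors of edgeR, and changes as log2 fold change (log2FC) of KIN against WT with its standard error (SE).

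Astrocytes clear glutamate and potassium from the space around synapses, pass ions and metabolites to each other through gap junctions, and deliver lipids, matrix proteins and metabolic substrates to neurons. In injury and degeneration they become reactive, a state in which intermediate filament and complement genes rise while transport genes can decline. Ataxin-2 is an RNA-binding protein of the cytoplasm that joins stress granules and influences the stability and translation of mRNA. Its polyglutamine expansion causes spinocerebellar ataxia type 2 and raises the risk of amyotrophic lateral sclerosis.

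The fraction was checked against its defining markers. Levels set side by side across the fractions are means over the 6 libraries of each fraction, scaled with TMM factors computed over all 18 libraries, and are therefore not on the scale of the levels within the astrocyte fraction given elsewhere. *Fgfr3*, a growth factor receptor of astrocytes, was at 58.2 CPM on this scale in the astrocyte fraction, compared with 0.887 CPM in the microglia and 0.944 CPM in the neuronal fraction. *Slc1a2*, the main glutamate transporter, was at 166.4 CPM against 5.46 and 3.02 CPM, and *Aqp4*, the water channel of the astrocyte endfeet, was at 29.6 CPM against 0.424 and 0 CPM. All were thus detected where the label places them, and only 3 of 18 microglia and macrophage markers had enough reads for a test. Among these *Itgam*, which encodes the CD11b antigen, had 7, 2 and 9 counts in the WT libraries against 1, 0 and 1 in the KIN libraries, a ratio of 0.124 with a 95% counting interval of 0.0140 to 0.520 (edgeR adjusted *p* = 0.0467). It did not pass with DESeq2 or when any library other than WT replicate 2 was left out. The other 2, *Csf1r* and *Cx3cr1*, did not pass. *Cx3cr1*, the fractalkine receptor of microglia, had 13, 9 and 19 counts in the WT libraries against 6, 2 and 7 in the KIN libraries. *Atxn2* itself had 32, 34 and 33 counts in the WT libraries against 37, 19 and 19 in the KIN libraries (log2FC −0.24, SE 0.27, edgeR adjusted *p* = 0.631). The expansion lies within the coding part, and counts that rest on 3′ reads of the whole gene cannot show which allele a library carries.

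The libraries held between 2118317 and 2829969 counts, of which the 10 most abundant entries took 75.8 to 81.1%. This left 469163 to 648888 counts per library for all other genes, and 3 counts corresponded to 1.01 to 1.81 CPM, a floor that covers counting error only. On the first principal component, which held 46.2% of the variance, the KIN libraries lay at 23.4, 54.4 and 33.8 and WT replicates 1 and 3 at −51.3 and −48.9, whereas WT replicate 2 stood nearer to the KIN libraries at −11.4. This library had fewer reads of neuronal genes and more of several astrocyte genes than the other WT libraries, therefore results below are given without it where that matters. The normalization factors were 1.05, 0.669 and 0.887 in KIN replicates 1 to 3 and 1.12, 1.13 and 1.27 in WT replicates 1 to 3. Between 15078 and 16950 entries had reads in the KIN libraries, compared with 17217 to 17876 in the WT libraries. The labels do not give the sex of a library; the Y-linked gene *Ddx3y* had 7, 5 and 12 counts in the WT libraries against 8, 1 and 1 in the KIN libraries, and the part of sex in the results was not tested. Nothing in the labels says whether mice with the same replicate number were littermates.

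Across all genes, edgeR's quasi-likelihood test with Benjamini-Hochberg adjustment found 1396 genes at an adjusted *p* of at most 0.05 (11.9% of those tested), of which 509 were higher in KIN (4.33%) and 887 lower (7.55%). With an absolute log2FC of at least 1 as a further condition, 1039 genes were called (8.84%), 285 higher (2.43%) and 754 lower (6.42%). "Passed the test" refers to the adjusted *p* alone in the following, and "called" to both conditions. The median log2FC of all genes was −0.0042. The KIN and WT libraries did not overlap for 909 of the 1039 called genes and for 27.8% of all genes tested. Of the genes called lower, 129 had 3 counts or fewer in every KIN library, so that only the WT libraries brought them through the filter. Of those called higher, 12 had 3 counts or fewer in every WT library. Without WT replicate 2, 472 genes were called higher and 1055 lower, and 944 of the 1039 genes were among them. DESeq2 in place of edgeR called 401 genes, 109 higher and 292 lower, and 397 of them were shared with edgeR.

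Genes were grouped by the fraction in which they were most abundant, taking a mean at least 2-fold above each of the other fractions. Of 1763 genes that led in the astrocyte fraction, 136 were higher (7.71%) and 182 lower (10.3%), with a median log2FC of 0.01. Of 746 genes that led in microglia, 27 were higher and 22 lower, with a median of 0.01. Of 544 genes that led in the neuronal fraction, 22 were higher and 111 lower (20.4%), and their median was −0.60. Genes of the astrocyte fraction therefore moved in both directions with no shift of their median, and the genes of smallest *p* in each direction were *Lgi3*, *C4b*, *Apod* and *Atp9a* among the higher ones, and *Agt*, *Grin2c*, *Adcy1* and *Snap25* among the lower ones. *Adcy1* and *Snap25*, an adenylyl cyclase and a vesicle fusion protein of neurons, show that this group also holds neuronal genes, because a gene was assigned by its level alone. In such bulk samples, fewer cells of a type and less RNA per cell cannot be told apart.

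Of the genes of transport, potassium buffering and coupling, most fell. Among the 21 tested members of this list, 13 were lower, 0 higher and 8 did not pass, with a median log2FC of −0.96. *Slc1a2* (ENSMUSG00000005089, GRCm39 chromosome 2, 102488574 to 102621129) was at 246, 361 and 242 CPM in the WT libraries and at 100.5, 112 and 122 CPM in the KIN libraries. It fell by 1.34 on the log2 scale (SE 0.22, edgeR adjusted *p* = 2.96e-05), with each KIN library below each WT library. *Slc6a11*, which takes up GABA, was at 158, 198 and 149.7 CPM in WT and 57.2, 50.8 and 70.5 CPM in KIN (log2FC −1.50, SE 0.22, edgeR adjusted *p* = 3.61e-06). *Gja1*, the gap junction protein connexin 43, was at 108, 151 and 104 CPM in WT and 43.0, 52.0 and 44.3 CPM in KIN (log2FC −1.39, SE 0.22, edgeR adjusted *p* = 1.3e-05). For both genes WT replicate 2 was the highest library, so that the fall was smaller without it, with a log2FC of −1.37 and −1.21. The sodium bicarbonate cotransporter *Slc4a4* fell as well (log2FC −1.31). *Aqp4* did not pass the test, with 35.3, 57.9 and 32.6 CPM in WT and 22.7, 33.3 and 28.9 CPM in KIN (log2FC −0.59, edgeR adjusted *p* = 0.0841), and its groups overlapped. Without WT replicate 2, 11 members of the list were lower, 1 was higher and the median was −0.83.

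**Figure D1:**
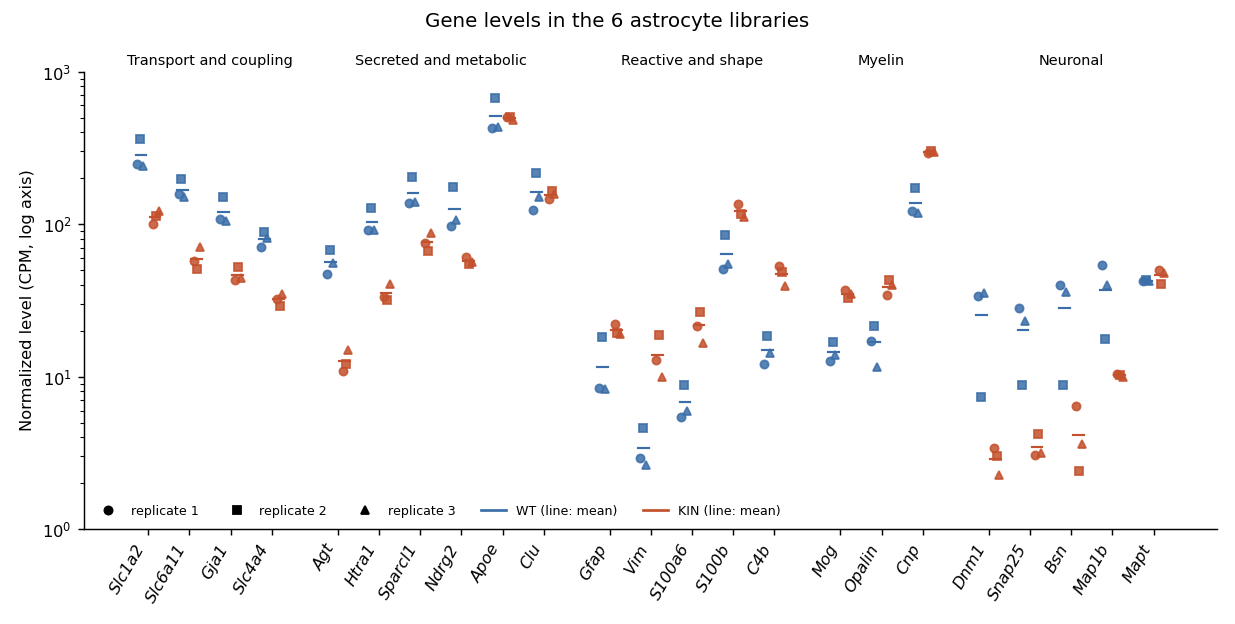
Normalized level (CPM, log axis) of 23 genes in each of the 6 astrocyte libraries. Blue symbols are WT and orange symbols KIN, the symbol shape gives the replicate, and the horizontal lines are the means of 3 libraries. The KIN libraries of *Slc1a2* (100.5 to 122 CPM) lie below those of WT (242 to 361 CPM), those of *Cnp* above, and WT replicate 2 (squares) lies apart from the other WT libraries for *Dnm1*, *Snap25* and *Bsn*.

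The markers that define astrocytes did not move as one. Of 16 markers, all tested, 9 were lower and 2 higher, and the median log2FC was −0.86. *Slc1a2*, *Gja1*, *Slc4a4* and *Aqp4*, described above with the transport genes, are also among these markers. *Fgfr3* was at 87.3, 113 and 87.0 CPM in WT and 48.7, 41.1 and 37.5 CPM in KIN (log2FC −1.16, SE 0.21, edgeR adjusted *p* = 0.000136), without overlap. The glycolytic enzyme *Aldoc*, which is typical of astrocytes, fell by 0.98. By contrast, the calcium-binding protein *S100b* rose from 51.2, 84.5 and 54.8 CPM in WT to 135, 117 and 111 CPM in KIN (log2FC 0.93, SE 0.22, edgeR adjusted *p* = 0.0023). *Apoe*, the main lipoprotein of astrocytes, was at 424, 669 and 434 CPM in WT and 501, 506 and 481 CPM in KIN (log2FC −0.04, edgeR adjusted *p* = 0.946). *Clu*, a secreted chaperone of astrocytes, had a log2FC of −0.06 (edgeR adjusted *p* = 0.904). The KIN libraries of both genes lay within the range of the WT libraries.

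Some genes of reactive astrocytes were higher. Of 20 genes of the pan-reactive type, 11 had enough reads, and 4 of these rose while 0 fell (median log2FC 0.96). *Vim*, an intermediate filament protein, had 7, 12 and 7 counts in the WT libraries against 38, 31 and 22 in the KIN libraries, or 2.94, 4.63 and 2.63 CPM against 12.9, 18.7 and 9.95 CPM (log2FC 1.97, SE 0.34, edgeR adjusted *p* = 4.33e-05). *S100a6*, another calcium-binding protein, was at 5.46, 8.88 and 6.00 CPM in WT and 21.7, 26.6 and 16.7 CPM in KIN (log2FC 1.65, edgeR adjusted *p* = 2.84e-05). *Gfap*, the classical filament gene of astrogliosis, was at 8.39, 18.1 and 8.25 CPM in WT and 21.99, 19.4 and 19.0 CPM in KIN. Its log2FC of 0.80 (SE 0.26, edgeR adjusted *p* = 0.0369) did not pass the test when any single library other than WT replicate 2 was left out, and without WT replicate 2 it was 1.28. The small heat shock protein *Cryab* did not pass (log2FC 0.58, edgeR adjusted *p* = 0.0976). Complement *C4b* (ENSMUSG00000073418, GRCm39 chromosome 17, 34947354 to 34962912) was among the firmest changes, at 12.2, 18.5 and 14.3 CPM in WT and 53.1, 48.4 and 39.3 CPM in KIN (log2FC 1.64, SE 0.23, edgeR adjusted *p* = 1.84e-06). Reads of *C4b* can be shared with its close copy at the same locus, and the value is uncertain in this respect. Of 8 tested genes of the neurotoxic type of reactivity, only *H2-D1* passed (log2FC 1.18) and did not with DESeq2, and of 12 genes of the ischaemia type only 2 were tested, neither of which passed.

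Several secreted and metabolic products of astrocytes fell. *Agt* (ENSMUSG00000031980, GRCm39 chromosome 8, 125279301 to 125296716), the precursor of the angiotensin peptides, was at 47.0, 67.9 and 55.5 CPM in WT and 10.8, 12.1 and 14.9 CPM in KIN (log2FC −2.18, SE 0.24, edgeR adjusted *p* = 8.83e-09). All WT libraries including replicate 2 were far above the KIN libraries. The secreted protease *Htra1* fell from 91.5, 129 and 91.2 CPM to 33.5, 32.1 and 40.2 CPM (log2FC −1.55, SE 0.22), and the glutamate receptor subunit *Grin2c* from 39.0, 42.4 and 36.4 CPM to 11.2, 10.9 and 13.6 CPM (log2FC −1.72, SE 0.24). *Etnppl*, which breaks down phosphoethanolamine, had 13, 36 and 23 counts in the WT libraries against 3, 2 and 1 in the KIN libraries, a ratio of 0.0933 with a 95% counting interval of 0.0332 to 0.213 that covers counting error only. Among 37 tested metabolic enzymes and transporters of astrocytes, 12 fell and 3 rose, with a median log2FC of −0.26. *Ndrg2* (log2FC −1.12) and the acyl-CoA synthetase *Acsl6* (log2FC −1.13) fell, while the serine synthesis enzyme *Psat1* (log2FC 0.96), the acyl-CoA binding protein *Dbi* (0.78) and the monocarboxylate transporter *Slc16a1* (0.95) rose. The 3 rises did not hold in every setting, as 0 genes of the list were higher without WT replicate 3 and 1 without WT replicate 1, KIN replicate 2 or KIN replicate 3. With DESeq2 6 genes were lower, and the median ran from −0.43 without WT replicate 3 to −0.12 without WT replicate 2.

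Proteins that astrocytes release around synapses and into the matrix fell in 7 of 18 tested genes and rose in 0 (median log2FC −0.47). Without KIN replicate 3, 4 of them fell, and with the length offset described below 6 fell and the median was −0.28. *Sparcl1*, which promotes synapse formation, was at 138, 205 and 139.9 CPM in WT and 75.1, 67.1 and 87.7 CPM in KIN (log2FC −1.07, SE 0.22, edgeR adjusted *p* = 0.00052). The proteoglycans *Ncan* (log2FC −1.24), *Spock2* (log2FC −1.37) and *Bcan* (log2FC −0.88) and the hyaluronan-binding *Itih3* (log2FC −1.24) fell likewise. *Spock2* also differed within WT, with 16.6 CPM in replicate 2 against 37.8 and 29.3 CPM. Among 28 tested genes of morphogen and growth factor signalling, 0 rose and 4 fell, which were *Fgfr3*, the Wnt receptor *Fzd2* (log2FC −1.43), the hedgehog receptor *Ptch1* (log2FC −0.87) and *Egfr* (log2FC −0.86). In this list 2 genes fell without KIN replicate 3, and 2 with the length offset. Transcription factors of the glial lineage were mostly within the spread of the replicates, as 22 of 24 did not pass (median log2FC −0.03); *Sox10* of oligodendrocytes rose (log2FC 1.07) and *Id4* fell (log2FC −0.77). The fall of *Id4* did not pass with DESeq2, with the length offset described below, or without WT replicate 2 or any one of the KIN libraries. Without WT replicate 2, 4 of the 24 transcription factors rose and 1 fell, and the median was 0.20.

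Cholesterol synthesis genes showed a smaller decline. Of 25 tested genes, 7 fell and 0 rose, with a median log2FC of −0.39. *Hmgcs1*, which commits acetyl-CoA to the pathway, was at 16.4, 20.8 and 18.0 CPM in WT and 13.2, 6.05 and 7.23 CPM in KIN (log2FC −0.98, SE 0.27, edgeR adjusted *p* = 0.0104). *Fdft1*, which forms squalene, was at 10.1, 14.3 and 13.1 CPM against 5.08, 4.84 and 6.78 CPM (log2FC −1.16). *Dhcr7* of the last step (log2FC −1.32) and the sterol sensor *Insig1* (log2FC −0.92) also fell. With DESeq2 in place of edgeR none of the 25 genes passed, and without WT replicate 2 there were 4 that fell and 1 that rose, with a median of −0.16. Cholesterol genes are controlled by sterol regulatory elements, here searched as the letters TCACNCCAC on both strands of the RefSeq promoter windows of GRCm38.p6, which run from 250 bases before to 50 bases after a start site. The letters occurred in 1.24% of 32851 windows, and among the 18 tested cholesterol genes with a window only in that of *Hmgcs1*. The stretch around it (GRCm38.p6 chr13:119690184-119690283, plus strand, 5′ to 3′) is shown because it holds the single match in the list, with the match in capitals.
Hmgcs1: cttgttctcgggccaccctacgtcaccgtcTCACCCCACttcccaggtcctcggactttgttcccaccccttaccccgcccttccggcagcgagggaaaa
The match begins at −137 from the start site. It is a description of the sequence, and no statement about the factor follows from the windows without these letters.

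Of 25 other lipid genes tested, 4 were higher and 3 lower (median log2FC −0.13), and 2 and 1 passed with DESeq2 or without KIN replicate 3. *Apod*, a lipid carrier of glia, rose from 41.5, 64.4 and 46.1 CPM in WT to 139, 133 and 122 CPM in KIN (log2FC 1.37, SE 0.22, edgeR adjusted *p* = 1.42e-05), and the cholesterol exporter *Abcg1* rose by 1.04 on the log2 scale. Lipoprotein lipase *Lpl* (log2FC −1.47) and the cholesterol-esterifying enzyme *Lcat* (log2FC −1.14) fell, and the desaturase *Scd2* did not pass (log2FC −0.28, edgeR adjusted *p* = 0.464).

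**Figure D2:**
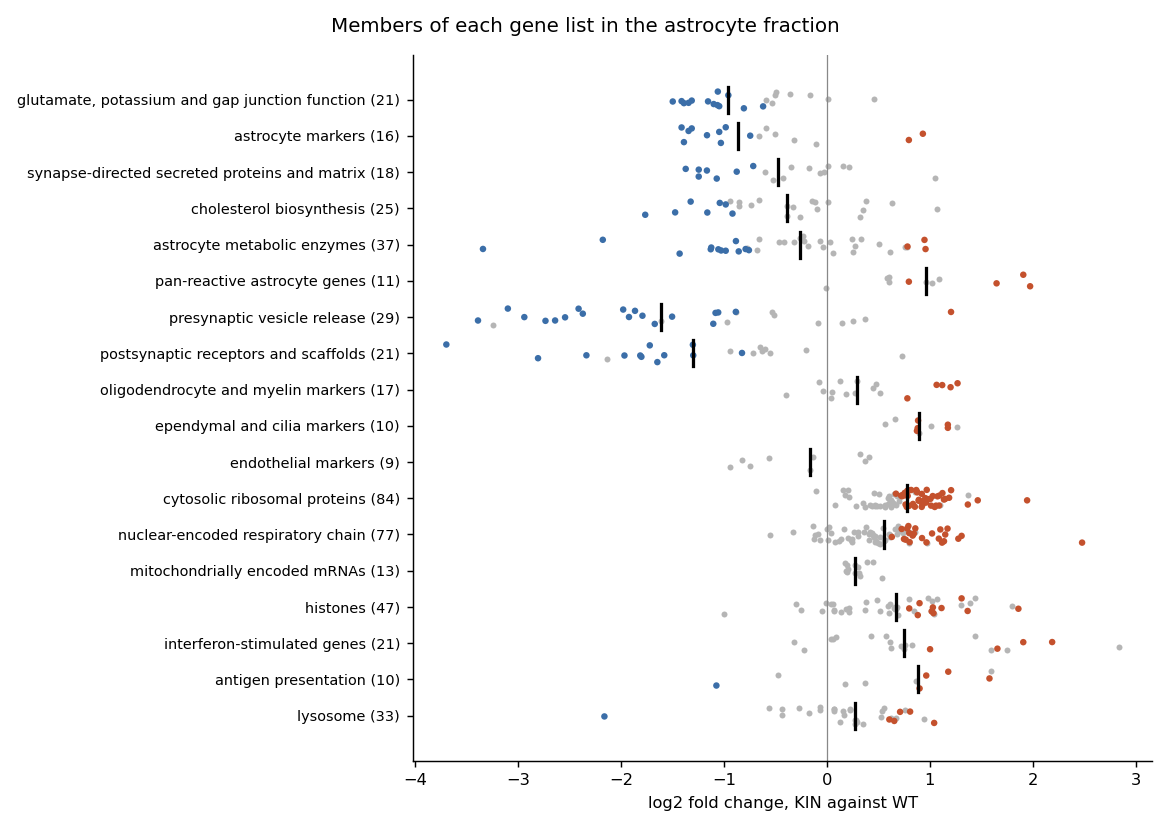
Log2 fold change of KIN against WT for each tested member of 18 gene lists in the astrocyte fraction. Each point is a gene, orange points passed the test as higher and blue points as lower (edgeR adjusted *p* of at most 0.05), grey points did not pass, black bars are the list medians, and the number of tested members stands in parentheses. The bar of the transport and coupling list lies at −0.96 and that of the cytosolic ribosomal proteins at 0.78.

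Neuronal genes fell in large number, in a fraction that should hold few of them. Of 29 tested genes of presynaptic vesicle release 18 fell and 1 rose (median log2FC −1.61), of 21 postsynaptic genes 12 fell and 0 rose (median −1.30), and of 24 genes of the neuronal cytoskeleton 13 fell and 2 rose (median −1.24). With DESeq2, 11 presynaptic, 9 postsynaptic and 8 cytoskeletal genes fell, and 1, 0 and 0 rose. The 17 neuronal markers that the study lists as reduced were named from these same samples, and 13 of them fell here, with 5 by DESeq2 and 7 without WT replicate 1. *Dnm1*, which pinches off synaptic vesicles, was at 33.6, 7.33 and 35.6 CPM in WT and 3.38, 3.02 and 2.26 CPM in KIN (log2FC −3.10, SE 0.39, edgeR adjusted *p* = 4.89e-07). *Bsn*, an active zone scaffold, was at 39.9, 8.88 and 36.01 CPM against 6.43, 2.42 and 3.62 CPM (log2FC −2.64). *Snap25* was at 28.1, 8.88 and 23.3 CPM against 3.05, 4.23 and 3.17 CPM (log2FC −2.54). In each of these genes WT replicate 2 lay about midway on a log scale between the other WT libraries and the KIN libraries, and without it the log2FC was −3.54, −3.06 and −2.91. The kinase subunit *Camk2b* (log2FC −2.81), the complexin *Cplx1* (−3.39), *Ndrg4* (−2.29), the axonal motor *Kif5a* (−2.05), the microtubule protein *Map1b* (−1.85) and the vesicular glutamate transporter *Slc17a7* (−2.94) had the same direction and passed the test. *Kif5a* was an exception to the pattern of WT replicate 2, with 22.2, 19.7 and 21.4 CPM in WT. Not every neuronal gene fell. The vesicle protein *Sv2a* rose from 23.1, 29.7 and 34.1 CPM to 64.3, 84.1 and 54.3 CPM (log2FC 1.21, SE 0.22, edgeR adjusted *p* = 0.000136), *Tubb3* had a log2FC of 0.92 with overlapping libraries, which did not pass with DESeq2 or without WT replicate 1 or KIN replicate 3, and *Mapt* was at 42.4, 42.8 and 42.4 CPM in WT and 50.1, 40.5 and 47.9 CPM in KIN (log2FC 0.13). The summed level of the 17 markers was 368, 189 and 297 CPM in WT and 146, 142 and 137 CPM in KIN.

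Olfactory and vomeronasal receptor genes, whose known site of expression is the nasal sensory epithelium, were lower in KIN in part. These families were singled out after their values had been seen, because *Vmn2r114* was among the 12 lower genes of smallest *p*. It was at 72.6, 54.0 and 74.6 CPM in WT and 24.0, 13.9 and 22.6 CPM in KIN (log2FC −1.70, SE 0.23, edgeR adjusted *p* = 1.36e-06). Of 409 tested genes of both families 152 were lower (37.2%), 2 were higher and the others did not pass, with a median log2FC of −1.09, and they made up 142 of the 754 genes called lower. Most were at a low level, with a median of 3.45 CPM. The summed level of the vomeronasal receptors was 1643, 1285 and 1784 CPM in WT and 847, 714 and 848 CPM in KIN. The summed level of the olfactory receptors without *Or2y16*, one of the 10 most abundant entries of the table, went the other way, with 5580, 5575 and 5184 CPM in WT and 6512, 8846 and 7630 CPM in KIN. Copies within these families share sequence, so that the counts of a single receptor are uncertain. In the median over both families WT replicate 2 was between the other WT and the KIN libraries, and the part of this background in the fall of neuronal genes was not tested.

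**Figure D3:**
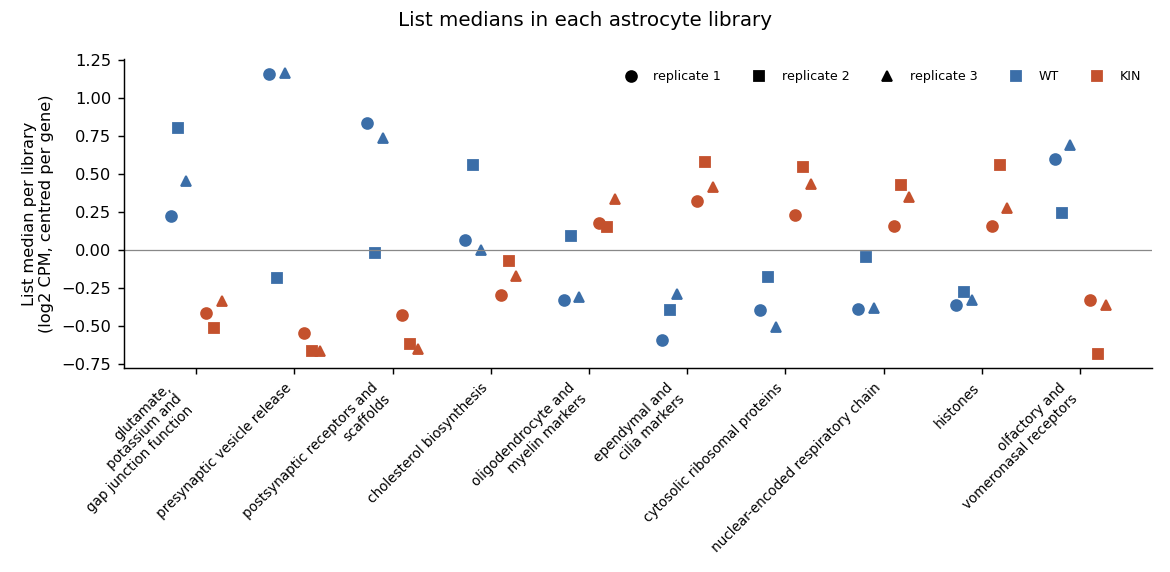
Median level of the members of 9 gene lists and of the olfactory and vomeronasal receptors in each astrocyte library, on a log2 CPM scale centred per gene over the 6 libraries. Blue symbols are WT, orange symbols are KIN, and the shape gives the replicate. For presynaptic genes WT replicates 1 and 3 lie above 1 and WT replicate 2 below 0, while for transport and coupling genes WT replicate 2 is the highest library.

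Genes of oligodendrocytes, whose cells share precursors and surface antigens with astrocytes, were higher in part. Of 17 tested myelin and oligodendrocyte markers 5 rose and 0 fell, with a median log2FC of 0.30; without WT replicate 2, 8 rose and the median was 0.49. *Mog*, a protein of the myelin surface, was at 12.6, 17.0 and 13.9 CPM in WT and 37.2, 32.7 and 34.8 CPM in KIN (log2FC 1.27, SE 0.23, edgeR adjusted *p* = 0.000108). *Cnp*, an enzyme of uncompacted myelin, was at 122, 171 and 118 CPM against 292, 304 and 298 CPM (log2FC 1.12), and *Opalin* rose by 1.202. The KIN libraries lay above the WT libraries for each of these genes. The summed level of the whole list was 642, 976 and 659 CPM in WT and 1095, 1113 and 1138 CPM in KIN. Of 6 tested precursor markers, 2 rose, *Sox10* and *Matn4* (log2FC 1.67). In this list 3 genes had a positive and 3 a negative log2FC, the lowest at −3.34. The list median was 0.50, and −0.0014 without KIN replicate 2. Without WT replicate 2, 2 precursor markers rose and 1 fell. The higher genes *Lgi3* and *Apod* are also known from oligodendrocytes, and the part of these cells in the rise of genes that led in the astrocyte fraction was not tested.

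Among 10 ependymal and cilia markers 5 rose and 0 fell (median log2FC 0.89). The ciliary transcription factor *Foxj1* was at 9.65, 10.0 and 12.4 CPM in WT and 18.9, 19.96 and 20.3 CPM in KIN (log2FC 0.88, edgeR adjusted *p* = 0.0134). *Ccdc153*, a component of motile cilia, rose by 0.88 and the lipid transfer protein *Pltp* by 0.89, and *Mia* rose by 1.18. The summed level of the whole list was 62.5 to 79.1 CPM in WT and 122 to 146 CPM in KIN. With DESeq2, and likewise without WT replicate 1, 1 of the 10 genes passed. None of 9 tested endothelial markers and none of 8 pericyte markers passed with edgeR or with DESeq2, and 1 gene in each list had an unadjusted *p* under 0.05; *Cldn5*, a tight junction protein of vessels, had a log2FC of −0.56 (edgeR adjusted *p* = 0.28) and *Vtn* of pericytes one of 0.59 (edgeR adjusted *p* = 0.113).

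Genes of the cytosolic ribosome rose in large number. Of 84 tested ribosomal protein genes 48 were higher and 0 lower, and the median log2FC was 0.78. *Rps16* was at 10.5, 10.0 and 8.25 CPM in WT and 25.7, 28.4 and 25.8 CPM in KIN (log2FC 1.47, SE 0.25, edgeR adjusted *p* = 3.15e-05). *Rps9* (log2FC 1.21), *Fau* (log2FC 1.19) and *Rpl9* (log2FC 1.15) passed as well. Of 77 tested nuclear genes of the respiratory chain 24 rose and 0 fell (median 0.55), among them the complex I subunits *Ndufa3* (log2FC 1.28), *Ndufs7* (log2FC 1.15) and *Ndufa7* (log2FC 1.14). The cytochrome oxidase subunit *Cox6b2* had 2, 5 and 1 counts in the WT libraries against 22, 8 and 12 in the KIN libraries (log2FC 2.48). In contrast, none of the 13 mitochondrially encoded mRNAs passed, although all had a positive log2FC (median 0.28; *mt-Nd4* 0.32). DESeq2 also passed none of them, and 1 had an unadjusted *p* under 0.05 with edgeR. Translation factors rose in 8 of 43 tested genes, including *Eif3h* (log2FC 1.25) and *Eif5a* (log2FC 0.98), and 1 fell, the neuronal elongation factor *Eef1a2* (log2FC −2.49). Of 43 proteasome genes 6 rose, among them *Psme1* (log2FC 1.63) and *Psmb2* (log2FC 1.14), and of 30 heat shock and chaperonin genes 2 rose, a share near the 4.33% of all genes, with *Cct6a* at a log2FC of 1.29. Without WT replicate 2, 7 of 29 heat shock and chaperonin genes rose, and without KIN replicate 1, 4 of 30 did. Without WT replicate 1, 2 translation factors and 1 proteasome gene rose, and with DESeq2 5 and 2 did. Without WT replicate 2, 59 ribosomal and 29 respiratory genes rose; without WT replicate 3, 18 and 8 did.

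The ribosomal and respiratory chain genes have short mRNAs, with a median length of 844 and 1160 nt compared with 3263 nt for all genes, and the KIN effect varied with transcript length over the whole fraction. The length of a gene was taken as the mean of its GENCODE transcripts weighted by their counts. Genes of up to 1000 nt had a median log2FC of 0.58, with 112 of 645 higher (17.4%) and 23 lower, whereas genes over 5000 nt had a median of −0.25, with 44 of 2461 higher (1.79%) and 318 lower (12.9%). The rank correlation of log2FC and length was −0.30 across 11740 genes, which share their libraries and are not independent replicates. Outside the 10 most abundant entries, genes of up to 1000 nt held 22.1, 22.5 and 21.4% of the counts in the WT libraries and 26.0, 28.1 and 27.3% in the KIN libraries. With length as an offset in each library, an alternative chosen after seeing the data, 15 ribosomal protein genes (median log2FC 0.50) and 10 respiratory chain genes (median 0.35) passed as higher. The transport and coupling list was less affected, with 11 lower genes and a median of −0.85, and the presynaptic list had 14 lower genes and a median of −1.31. With the offset, 2 proteasome genes were higher and 1 lower (median 0.21), 6 histone genes were higher (median 0.37), and 1 of the antioxidant genes was higher and 2 lower (median 0.27). Length thus went together with genotype in these 6 libraries, and its part in the rise of these groups was not tested beyond this offset.

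**Figure D4:**
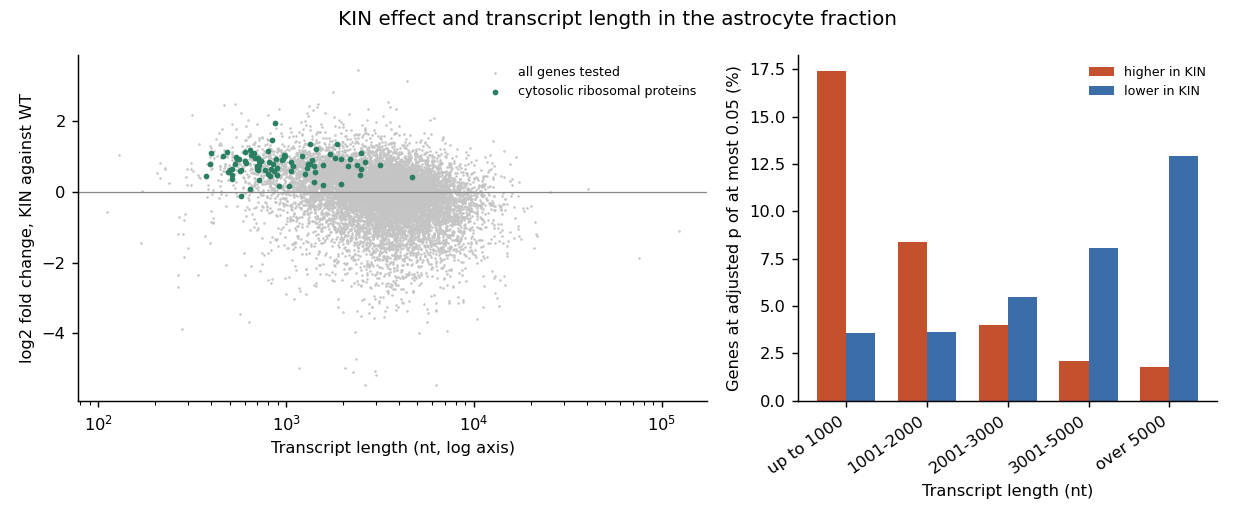
Left, log2 fold change of KIN against WT of each tested gene against its transcript length (nt, log axis), with cytosolic ribosomal proteins in green. Right, share of genes in 5 length classes that passed the test as higher (orange) or lower (blue) in KIN. The share of higher genes runs from 17.4% up to 1000 nt to 1.79% over 5000 nt, and that of lower genes from 3.57 to 12.9%.

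Interferon-stimulated and antigen presentation genes were at low levels, and those that passed were mostly higher. Of 21 tested interferon-stimulated genes 4 rose and 0 fell (median log2FC 0.75), and of 10 antigen presentation genes 4 rose and 1 fell (median 0.88). With DESeq2, 3 interferon-stimulated genes rose, and 1 antigen presentation gene rose and 0 fell. Without WT replicate 2, 7 interferon-stimulated genes rose. *Ifi27* was at 4.62, 12.0 and 7.13 CPM in WT and 26.4, 27.2 and 22.2 CPM in KIN (log2FC 1.66, SE 0.27, edgeR adjusted *p* = 2.17e-05). The membrane protein *Ifitm3*, which restricts viral entry, was at 2.94, 2.70 and 4.13 CPM against 7.11, 16.9 and 14.9 CPM (log2FC 1.91). *Bst2*, which tethers budding virus particles, had 1, 6 and 2 counts in the WT libraries against 11, 14 and 12 in the KIN libraries (log2FC 2.19, edgeR adjusted *p* = 0.0029). *B2m*, the light chain of class I histocompatibility molecules, was at 2.94, 8.10 and 4.501 CPM against 14.5, 14.5 and 18.1 CPM (log2FC 1.58, SE 0.31, edgeR adjusted *p* = 0.00026). The class I heavy chain *H2-K1* rose by 0.90 and *H2-Q4* fell by 1.07, and reads of these heavy chains can be shared among near copies. *Rnf213*, a ubiquitin ligase, rose by 1.00. *Bst2* and *B2m* were most abundant in the microglia fraction, at 21.997 and 109 CPM on average on the scale of all 18 libraries, and the part of microglia in these rises was not tested. The summed level of the 3 tested microglia markers was 10.9, 6.17 and 14.3 CPM in WT and 3.72, 6.05 and 6.33 CPM in KIN. Promoter windows were searched for the interferon-stimulated response element as GAAA, any 2 bases and GAAA again on both strands, where overlapping matches count. The letters occurred in 3.44% of the 32851 windows, in 9 of 16 tested interferon-stimulated genes with a window and in 3 of 9 antigen presentation genes. The stretches of 100 bases below are those of *B2m* (GRCm38.p6 chr2:122147518-122147617, plus strand) and *Bst2* (GRCm38.p6 chr8:71537533-71537632, minus strand), which passed the test and hold a match before the start site, with matches in capitals and 5′ to 3′ along the gene.
B2m: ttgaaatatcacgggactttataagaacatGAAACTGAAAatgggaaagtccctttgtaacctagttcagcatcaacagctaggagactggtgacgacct
Bst2: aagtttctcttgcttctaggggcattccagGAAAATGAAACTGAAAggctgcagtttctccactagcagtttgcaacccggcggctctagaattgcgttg
The first match begins at −139 in *B2m* and at −130 in *Bst2*, where 2 matches overlap. Of the 9 interferon-stimulated genes with these letters, 2 passed the test.

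Several smaller groups also rose in part. Their counts are to be read beside the 4.33% of all genes that passed as higher and the 7.55% that passed as lower. Immediate-early genes, which respond to activity and to dissociation of tissue, rose in 3 of 24 tested genes; *Egr1* was at 13.0, 16.2 and 13.9 CPM in WT and 40.3, 41.1 and 32.1 CPM in KIN (log2FC 1.39, SE 0.23, edgeR adjusted *p* = 2.45e-05), *Fos* rose by 0.97 and *Fosb* by 0.91. With DESeq2, or without WT replicate 1, WT replicate 3 or KIN replicate 1, 1 immediate-early gene passed. Of 47 tested histone genes 10 rose and 0 fell (median log2FC 0.67), with *H2bc27* at a log2FC of 1.86, *H2aj* at 1.37 and *H4c4* at 1.04; DESeq2 passed 3 histone genes, and 4 passed without WT replicate 1 or without KIN replicate 2. Most of these were short as well, with a median length of 820.0 nt, and copies of histone genes share reads. Of 23 actin-related genes 5 rose and 0 fell; *Actb* was at 209, 313 and 222 CPM in WT and 481, 477 and 455 CPM in KIN (log2FC 0.93), and the myosin light chain *Myl6* rose by 1.12. Without WT replicate 3, 1 actin-related gene passed, and without WT replicate 1, 2 did. Of 11 genes of iron handling 2 rose and 0 fell, 6 had a negative log2FC, and the median was −0.05. Ferritin light chain *Ftl1* rose from 27.7, 27.01 and 21.8 CPM to 57.5, 70.2 and 54.3 CPM (log2FC 1.24), and transferrin *Trf*, made by oligodendrocytes, rose by 0.74, while the heavy chain *Fth1* did not pass (log2FC 0.35). Of 28 antioxidant genes and metallothioneins 4 rose and 1 fell, with *Gpx4* at a log2FC of 0.87, *Prdx1* at 0.69, *Sod1* at 0.67 and *Selenop* at −0.68; the astrocyte metallothionein *Mt3* did not pass (log2FC 0.33). With DESeq2, or without WT replicate 1, WT replicate 3, KIN replicate 2 or KIN replicate 3, 1 gene of this list rose. Of 33 lysosomal genes 5 rose, including the proton pump subunit *Atp6v0c* (log2FC 0.71), *Lamp1* (log2FC 0.65) and *Ctsd* (log2FC 0.61), and the neuronal pump subunit *Atp6v1g2* fell by 2.16. Without WT replicate 1 no lysosomal gene passed in either direction, and without WT replicate 3 or KIN replicate 2 none rose. Of 16 genes of the unfolded protein response, *Calr* (log2FC 0.73) and *Pdia4* (log2FC 1.199) rose, and neither passed without WT replicate 1, WT replicate 3 or KIN replicate 3. Among 22 glucocorticoid-responsive and circadian genes 3 fell and 0 rose, among them *Per3* (log2FC −0.96) and *Hlf* (log2FC −1.89). None of them passed with DESeq2 or without KIN replicate 1, and the median of −0.14 was 0.11 without WT replicate 2.

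Most genes of ataxin-2 and its partners in stress granules and RNA handling did not pass the test. Of 25 tested genes 1 rose, 3 fell and 21 did not pass, and the median log2FC was −0.13. Among all genes 4.33% rose and 7.55% fell, so the counts do not set this group apart. None of the 3 falls passed without WT replicate 1 or without KIN replicate 3. The stress granule protein *G3bp2* was at 15.5, 7.72 and 9.00 CPM in WT and 6.09, 3.02 and 4.07 CPM in KIN (log2FC −1.19, SE 0.34, edgeR adjusted *p* = 0.0129). The nuclear envelope protein *Syne1* fell from 178, 113 and 143 CPM to 80.9, 79.8 and 79.1 CPM (log2FC −0.86), and *Cyfip2*, a regulator of actin and of local translation, fell by 1.07 on the log2 scale with overlapping libraries. *Rnf213* was the single higher gene. With length as an offset, *Syne1*, which has very long transcripts, had a log2FC of −0.15 and no longer passed, and neither did *Cyfip2* (log2FC −0.78). With DESeq2, *Syne1* passed and the other 3 did not.

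The genes of smallest *p* outside these lists were also examined. *Lgi3* (ENSMUSG00000033595, GRCm39 chromosome 14, 70767988 to 70780355), a secreted leucine-rich repeat protein, was at 29.0, 40.5 and 36.8 CPM in WT and 94.7, 118 and 101 CPM in KIN (log2FC 1.55, SE 0.21, edgeR adjusted *p* = 1.68e-06). The phospholipid flippase *Atp9a* (log2FC 1.37), the JNK scaffold *Mapk8ip1* (log2FC 1.31), the peroxisomal and mitochondrial enzyme *Ech1* (log2FC 1.67) and the phosphatase inhibitor *Ppp1r14a* (log2FC 1.31) were likewise higher in all KIN libraries. *Xkrx* (ENSMUSG00000031258, GRCm39 chromosome X, 133049789 to 133063747), a membrane protein related to scramblases, had the smallest *p* of all genes. It was at 289, 92.2 and 505 CPM in WT and 55.5, 11.5 and 21.7 CPM in KIN (log2FC −3.25, SE 0.35, edgeR adjusted *p* = 8.83e-09), and its level spread over more than 5-fold within WT and nearly 5-fold within KIN. The lysosomal sulfatase *Arsb* had a like pattern, with 108, 39.7 and 194 CPM in WT and 34.8, 12.1 and 15.4 CPM in KIN (log2FC −2.39). In both genes WT replicate 2 was the lowest WT library and KIN replicate 1 the highest KIN library.

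Whether the KIN effect differed between the glial fractions was tested as an interaction over the 12 astrocyte and microglia libraries. The fractions of a brain were isolated one after the other from the same animal, which this fit does not take into account, and the labels do not tie libraries to animals. Of 13277 genes, 152 were called (1.14%), of which 103 had a higher log2FC in microglia (0.776%) and 49 a lower one (0.369%). Of the named lipid genes that were called, *Apoe* and *Lpl* differed most. With TMM factors computed over these 12 libraries, *Apoe* was on average at 459 CPM in WT and 448 CPM in KIN astrocytes, and at 176 CPM in WT and 1514 CPM in KIN microglia, a difference of the log2FC of 3.14 (SE 0.38, edgeR adjusted *p* = 1.22e-07). *Lpl* fell in astrocytes and had a log2FC of 1.198 in microglia. In contrast, the log2FC was lower in microglia for *Mapk8ip1*, *Atp9a*, *Sv2a*, *Tubb3*, *Mapt*, *Cnp* and *Egr1*, of which *Egr1* was at 217 and 201 CPM in WT and KIN microglia. The others were at low mean levels of 0.379 to 8.71 CPM in microglia. The interaction rests on few libraries, since leaving out 1 of the 12 gave between 69 and 300 calls, and with the replicate number within genotype as a block there were 358, among them all 152.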

How the data were processed

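According to the study's methods, the authors trimmed the reads with cutadapt 4.6, aligned them stepwise with Bowtie2 2.4.4 to small RNA and ENSEMBL sequences of mm39 and counted them with HTSeq 2.0.2. The deposited counts are whole numbers of reads per transcript after removal of duplicates by molecular identifiers, without normalization. The deposited fold changes and *p*-values, and 36 per-sample columns that were not needed, were not used. Here the 6 astrocyte libraries were summed per gene symbol, a gene was kept when 2 or more libraries held 5 reads or more, and KIN was compared with WT by edgeR 4.0.16 (TMM, quasi-likelihood, R 4.3.3) without covariates, with DESeq2 1.42.0 as an alternative. Entries without a symbol were below 0.031% of the counts and were kept under their transcript identifier. The fit was tested on simulated data, with the changed genes drawn from those with a mean of at least 10 counts. Of these, 36 of 100 changed by 1 on the log2 scale and 92 of 100 changed by 2 passed the test. Among all 11112 genes, 8 unchanged ones passed as well. Genes of fewer counts and the further limit on log2FC were not covered. Named genes were the 12 called genes of smallest *p* in each direction with at least 10 CPM and no overlap, up to 4 passing members per direction and the 2 most abundant members of each list, 4 per direction of the astrocyte-led class, and *Atxn2*, *Aqp4*, *Fgfr3*, *Slc1a2* and *Gfap*; of these a part is printed. The gene groups were chosen with earlier results of these data known. Some named genes are not reported here. Small nuclear RNAs and most long non-coding RNAs were not analysed here. Coordinates and transcript lengths are from GENCODE (GRCm39), promoter windows from RefSeq (GRCm38.p6). Replicates differed by more than sampling noise (chi-square per degree of freedom 2.12 to 8.57), and *p*-values measure the spread between these samples.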

Additional observations from a re-analysis of the deposited data

Results flagged for a closer look

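For 16 of the named genes the KIN effect differed between the microglia and the astrocyte fraction by the interaction test (edgeR, adjusted over 13277 genes). Among all genes 1.14% were called by this test. Part of the named genes had been chosen by a small *p* in the same astrocyte libraries. That choice favours a difference from microglia, so the number of named genes that differ is no measure of its frequency. The values are the log2FC in microglia minus that in astrocytes. It was 3.14 for *Apoe*, with a log2FC of 3.09 in microglia and −0.04 in astrocytes. It was 2.66 for *Lpl* and 1.73 for *Fdft1*, which fell in astrocytes and had a log2FC of 1.198 and 0.57 in microglia. *Xkrx* differed by 4.03 and *Arsb* by 2.94, and their log2FC in microglia was 0.79 and 0.57 without passing the test there. *Vmn2r114* differed by 1.57, at 83.9 and 77.4 CPM in WT and KIN microglia on the scale of the 12 libraries of this fit. The difference was negative for 4 of the named genes of the neuronal and myelin lists, with −3.94 for *Tubb3*, −1.98 for *Sv2a*, −2.48 for *Mapt* and −1.62 for *Cnp*. The lists as a whole were not compared between the fractions. Of these, *Mapt* passed the test within microglia as lower (log2FC −2.35, edgeR adjusted *p* = 0.0269). It was likewise −3.07 for *Mapk8ip1*, −2.97 for *Atp9a*, −1.88 for *Ech1*, −2.56 for *H2bc27* and −1.51 for *Egr1*. None of these genes passed the test within microglia. *Mapk8ip1*, *Atp9a* and *H2bc27* were low there, at 6.00, 3.80 and 1.96 CPM in WT and 1.85, 1.31 and 1.18 CPM in KIN. So were *Tubb3* and *Mapt*, at 3.15 and 4.59 CPM in WT and 0.379 and 0.897 CPM in KIN. *Lgi3* differed by −3.75, but it was at 1.40 CPM in WT and 0.285 CPM in KIN microglia and was too low for a test in that fraction alone.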

How the results depend on the processing

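The number of called genes between KIN and WT was 1039, and it ranged from 573 (without WT replicate 3) to 1527 (without WT replicate 2) when single libraries were left out, with 605 without WT replicate 1. DESeq2 called 401. Other size factors, filters, all 18 libraries in one fit, single transcripts, coding transcripts only and the length offset gave 736 to 1302, and the adjusted *p* alone gave 1396. Coding transcripts and the length offset were chosen after seeing the data. For the difference between microglia and astrocytes the count was 152, with 82 by DESeq2 and 69 to 300 when single libraries were left out. Replicate numbers were not seen to pair WT with KIN astrocyte libraries. The deviations of those with the same number correlated at 0.00371, 0.0478 and −0.00429, and of those with different numbers at −0.0667 to 0.0772. For astrocyte and microglia libraries of WT, the correlations were 0.0593 to 0.191 at the same number and −0.126 to 0.0663 at different numbers. For those of KIN they were −0.0105 to 0.0228 and −0.0388 to 0.0327. Whether replicate numbers pair the fractions was not tested. A replicate block gave 1198 calls between KIN and WT and 358 for the difference. Among 127 named genes, DESeq2 took 34 out of significance, the length offset 17, and single libraries between 4 and 33. Direction changed for genes near 0, over the fits that left out a library from −0.16 to 0.21 for *Apoe* and −0.23 to 0.18 for *Clu*. With the length offset *Mt3* was at −0.0096. List medians ran from −0.16 to 0.42 for neurotoxic-type genes and from −0.0014 to 1.04 for oligodendrocyte precursor markers. With the length offset the median was 0.061 for ataxin-2 and partners, −0.081 for mitochondrially encoded mRNAs and 0.11 for morphogen signalling. The causes were not tested. With 469163 to 648888 counts outside the 10 most abundant entries, changes of 2-fold in genes of few reads were often not detectable.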
